A study of Mus musculus with 2 samples.

Results

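The mitochondrial carriers of the SLC25 family were described in nuclei isolated from the brown fat of mice aged 4 weeks. The members were all genes whose symbol starts with Slc25a, apart from Slc25a20, that had at least 50 UMIs (unique molecular identifiers, 1 for each RNA molecule counted) over both libraries. Of 46 such symbols among 22620 genes, 43 were kept. Slc25a31, Slc25a41 and Slc25a54 had 21, 23 and 11 UMIs and were left out, while Slc25a2 with 61 and Slc25a43 with 137 UMIs were the kept members with the fewest. There was 1 library of genotype KO, which the series design gives as a knockout of Nfe2l1 written Nfe2l1(f)-KO, and 1 of genotype Flox. Both were made from brown adipose tissue at the same age. The sources used here do not name the promoter that drove the deletion or say how many mice each library held.

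SLC25 proteins are carriers of the inner mitochondrial membrane. Each exchanges or co-transports a small set of solutes, such as ADP for ATP, phosphate, citrate, amino acids, iron or coenzymes, between the cytosol and the mitochondrial matrix. They are made in the cytosol and inserted through the TIM22 translocase. In brown fat, a tissue that oxidises fuel to make heat, they feed the respiratory chain, and the uncoupling protein UCP1 belongs to the same family under another symbol.

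With 1 library per genotype no difference between genotypes has a replicate check, and no test between libraries was run. Values are given side by side as CPM, the UMIs of a gene per 1000000 UMIs of the class of nuclei. Intervals are 95% intervals, exact Poisson for CPM, exact binomial for ratios and Clopper-Pearson for shares, and they cover counting error only, not the spread between nuclei or mice. Log2 ratios are KO over Flox, and a carrier was counted as higher or lower at 1.5-fold or more, if it had at least 50 UMIs in the class. The library labelled KO held 13030 barcodes with 43080725 UMIs (median 2755 per barcode) and the library labelled Flox 16145 barcodes with 46528077 UMIs (median 2375), and 65 barcode sequences occurred in both. After filtering, 11570 and 13986 nuclei were kept, of which 8217 (KO) and 8843 (Flox) were adipocyte-like. In these, the 19 fixed adipocyte markers summed to 21838 CPM in KO and 21455 CPM in Flox. The mitochondrial share of their UMIs was 1.28% in KO and 0.464% in Flox. Nfe2l1 itself went against the label, with 313 CPM in the library labelled KO and 131 CPM in the library labelled Flox (log2 ratio 1.25). The stretch of Nfe2l1 that was removed is not known here and the counts read 3' ends, so they do not test the label, and every direction below rests on the labels. Slc25a2, Slc25a10, Slc25a11, Slc25a18, Slc25a21, Slc25a23, Slc25a25, Slc25a26, Slc25a33, Slc25a35, Slc25a36, Slc25a37, Slc25a46 and Slc25a53 overlap an annotated gene on the other strand. The sources used here do not say whether reads were counted by strand, so their counts may hold reads of that gene.

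The promoter windows of 5 carriers that the results turn on are shown, each of 300 bases, from 250 bases before to 50 bases after the annotated start. They are RefSeq sequences on GRCm38.p6, the assembly also called mm10, written 5′ to 3′ on the gene's strand, and capitals mark the motif matches described next. Slc25a34 was the carrier with more than 100 UMIs in each library that was at least 1.5-fold lower in KO adipocyte-like nuclei. Slc25a42 was the carrier with most adipocyte-like UMIs in KO, and Slc25a1, Slc25a10 and Slc25a25 were highest together in the same adipocyte-like cluster. The windows of Slc25a42, Slc25a1 and Slc25a10 held none of the motifs and have no capitals. Slc25a25 had 3 windows, of which the one with motif matches is shown and the other two held none.
Slc25a34 (chr4:141623785-141624084, minus strand): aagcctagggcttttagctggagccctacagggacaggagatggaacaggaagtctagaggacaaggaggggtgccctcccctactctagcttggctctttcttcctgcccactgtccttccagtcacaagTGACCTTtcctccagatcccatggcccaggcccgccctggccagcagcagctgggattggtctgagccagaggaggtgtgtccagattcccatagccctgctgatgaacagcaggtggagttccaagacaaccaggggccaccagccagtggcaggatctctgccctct
Slc25a42 (chr8:70212232-70212531, minus strand): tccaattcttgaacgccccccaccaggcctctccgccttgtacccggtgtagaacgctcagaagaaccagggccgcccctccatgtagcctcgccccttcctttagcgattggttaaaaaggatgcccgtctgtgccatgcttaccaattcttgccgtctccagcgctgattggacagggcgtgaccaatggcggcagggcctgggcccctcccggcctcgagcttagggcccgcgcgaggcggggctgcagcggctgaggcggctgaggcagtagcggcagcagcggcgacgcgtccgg
Slc25a1 (chr16:17928170-17928469, minus strand): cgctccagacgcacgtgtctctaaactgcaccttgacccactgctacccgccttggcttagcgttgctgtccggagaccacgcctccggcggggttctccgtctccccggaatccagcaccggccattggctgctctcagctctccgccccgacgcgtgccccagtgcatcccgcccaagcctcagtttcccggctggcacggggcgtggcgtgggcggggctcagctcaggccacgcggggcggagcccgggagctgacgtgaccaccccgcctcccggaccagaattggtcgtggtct
Slc25a10 (chr11:120491587-120491886, plus strand): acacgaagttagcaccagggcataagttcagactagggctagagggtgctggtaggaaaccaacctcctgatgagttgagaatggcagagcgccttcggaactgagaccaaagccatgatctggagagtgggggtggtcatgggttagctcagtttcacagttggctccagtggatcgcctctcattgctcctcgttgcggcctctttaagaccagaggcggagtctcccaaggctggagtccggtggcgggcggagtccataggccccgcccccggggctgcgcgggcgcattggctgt
Slc25a25 (chr2:32451421-32451720, minus strand): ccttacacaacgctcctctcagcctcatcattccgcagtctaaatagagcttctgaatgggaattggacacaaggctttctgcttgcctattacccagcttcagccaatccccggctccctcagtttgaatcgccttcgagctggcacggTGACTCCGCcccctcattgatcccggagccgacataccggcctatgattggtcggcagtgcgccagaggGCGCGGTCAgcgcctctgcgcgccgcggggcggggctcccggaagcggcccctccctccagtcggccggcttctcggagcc

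Windows were found for 33 of the 43 carriers, 43 windows in all, and 3 motifs were searched in them on both strands. AAGGTCA, the half-site of the oestrogen-related receptors, was in a window of 1 carrier of 33 (3.03%), against 5.38% of 27025 genes. That carrier was Slc25a34, with the match on the opposite strand, 119 bases before the start. TGACNNNGC, an antioxidant-type element that NFE2L1 and related factors can bind, was in 9 of 33 (27.3%), against 14.0% of genes. The 9 were Slc25a3, Slc25a5, Slc25a14, Slc25a23, Slc25a25, Slc25a33, Slc25a38, Slc25a40 and Slc25a53. The palindromic site of nuclear respiratory factor 1 (a different protein from NFE2L1) was in 0 of 33 carriers and 1.07% of genes. AAGGTCA and TGACNNNGC overlap in TGAC or its complement GTCA, so that 1 stretch can hold both. The carrier windows were richer in GC than the windows of all genes, with medians of 59% and 52.7% GC and 15 and 7 CpG dinucleotides. None of the 9 carriers with TGACNNNGC was among those at least 1.5-fold apart between the libraries in adipocyte-like nuclei. Only 3 of the 39 carriers counted there were, and of all genes 2.05% were higher and 8.20% lower. At such shares, 9 carriers are too few for the lack of overlap to carry weight.

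Levels of different carriers were compared as CPM per kilobase of gene, since nuclear RNA can hold reads from introns. Whether intron reads were counted here is not stated in the sources used. The order below therefore rests on the division by gene length. By CPM alone, Slc25a42 (797) stood above Slc25a51 (681) in KO and below it in Flox (619 and 812). In adipocyte-like nuclei the NAD+ carrier Slc25a51 stood highest, at 53.0 CPM per kb (52.3 to 53.8) in KO and 63.2 (62.4 to 64.0) in Flox. The phosphate carrier Slc25a3 came next at 33.0 in KO and 30.3 in Flox. The coenzyme A carrier Slc25a42 followed at 28.5 in KO and 22.1 in Flox. The adenine nucleotide translocase Slc25a4 and the oxoglutarate/malate carrier Slc25a11 were lower, with Slc25a4 at 17.4 in KO and 13.6 in Flox and Slc25a11 at 13.5 in KO and 12.9 in Flox. The intervals of these 5 carriers did not overlap in KO, whereas Slc25a4 (12.99 to 14.3) and Slc25a11 (12.2 to 13.7) overlapped in Flox. Slc25a24, Slc25a21 and Slc25a13 took the last 3 places in both libraries, with Slc25a24 at 0.0113 CPM per kb in KO and 0.00788 in Flox and the others below it. Slc25a21 and Slc25a13 are long genes, of 485 and 176 kb. Slc25a45, of 8.07 kb, had fewer CPM than either in both libraries. By UMIs, Slc25a42 and Slc25a51 together made up 39.2% (38.9 to 39.5) of all carrier UMIs in KO adipocyte-like nuclei and 39.8% (39.5 to 40.1) in Flox. All 43 carriers summed to 3769 CPM in KO and 3595 CPM in Flox.

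Between the genotypes, the carriers as a group stood close together in adipocyte-like nuclei. Of the 39 carriers with enough UMIs, 0 were at least 1.5-fold higher in KO and 3 were at least 1.5-fold lower, namely Slc25a21, Slc25a12 and Slc25a34. Over all 12310 genes counted there, 2.05% were that much higher and 8.20% that much lower, so the carriers' 3 of 39 is near the background. The median log2 ratio of the 39 was 0.07, with 23 above 0 and 16 below 0, beside a median of -0.06 over all genes. Of all genes counted there, 40.8% were above 0. With TMM scaling the carriers' median was 0.12 and that of all genes 0.00. The other 4 members (Slc25a2, Slc25a13, Slc25a24 and Slc25a45) had under 50 adipocyte-like UMIs in all. Counted by whether the interval lay wholly on 1 side of 0, 15 carriers were above and 9 below, at depths of up to 23289 UMIs. This count was not made over all genes, so it has no background to be set against.

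**Figure D1:**
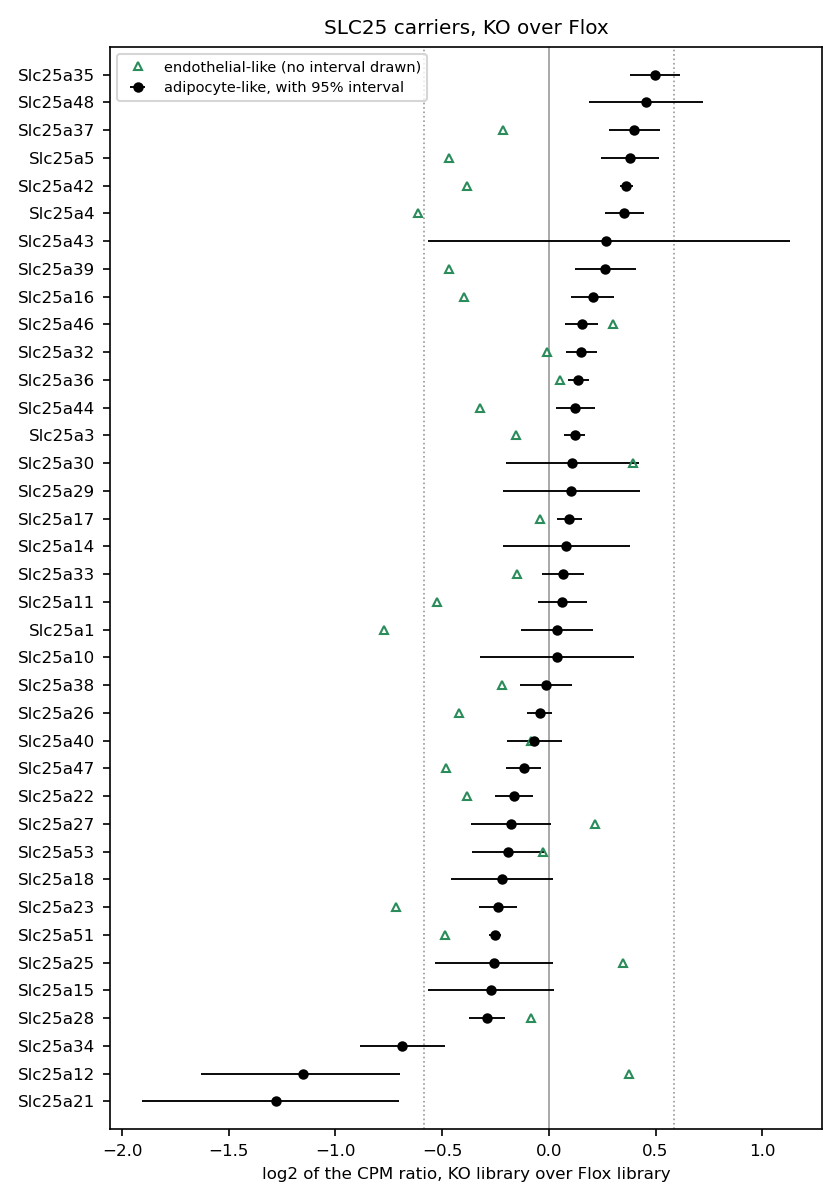
Log2 ratio of CPM, KO over Flox, for 38 of the 39 carriers with at least 50 UMIs in adipocyte-like nuclei (black points with 95% counting intervals) and, where counted, in endothelial-like nuclei (green triangles), with dotted lines at 1.5-fold. No black point passes the upper line and 3 pass the lower line (Slc25a21, Slc25a12 and Slc25a34), while most triangles lie left of 0.

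Among the carriers of ADP, ATP and phosphate, all 3 members were higher in KO by less than 1.5-fold. Slc25a4 (adenine nucleotide translocase 1, the muscle and heart form) had 78.2 CPM (75.0 to 81.5) in KO and 61.2 CPM (58.3 to 64.1) in Flox, a log2 ratio of 0.35 (0.26 to 0.45). Slc25a5 (adenine nucleotide translocase 2) had 36.2 CPM in KO and 27.8 CPM in Flox, a ratio of 0.38 (0.25 to 0.52). Skeletal muscle-like nuclei, whose markers were lower in KO adipocyte-like nuclei, had Slc25a4 at 310 CPM in KO and 405 CPM in Flox. The part of muscle RNA in the Slc25a4 ratio was not tested. Slc25a3, which brings phosphate in for ATP synthesis, had 247 CPM in KO and 227 CPM in Flox (0.12). Slc25a4 and Slc25a5 are near copies whose reads a 3' count could split, and the share of Slc25a4 in their summed UMIs was 68.4% (66.7 to 69.9) in KO and 68.8% (66.9 to 70.6) in Flox. The calcium-regulated ATP-Mg/phosphate carriers Slc25a23 and Slc25a25 stood at -0.24 and -0.26, and Slc25a25 turned to 0.20 with nuclei thinned to 1000 UMIs. Slc25a23 had 67.3 CPM in KO and 79.4 CPM in Flox, with intervals that did not overlap, and Slc25a25 had 7.08 and 8.47 CPM, with intervals that did.

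The carriers of coenzymes and nucleotides, of which 8 are described, were led by the largest counts of the family. Slc25a42, which takes coenzyme A into the matrix, had 23289 UMIs in KO and 17339 in Flox. Its level was 797 CPM (787 to 807) in KO and 619 CPM (610 to 629) in Flox, a log2 ratio of 0.36 (0.34 to 0.39). Slc25a51, which takes NAD+ into the matrix, went the other way, with 681 CPM (672 to 691) in KO and 812 CPM (801 to 822) in Flox, a log2 ratio of -0.25 (-0.28 to -0.23). Slc25a42 was thus the higher of the pair by UMIs in KO and Slc25a51 in Flox. The folate and FAD carrier Slc25a32 had 113 CPM in KO and 102 CPM in Flox (0.15). The pyrimidine nucleotide carriers Slc25a36 and Slc25a33 stood at 0.14 and 0.07, the S-adenosylmethionine carrier Slc25a26 at -0.04 and the peroxisomal cofactor carrier Slc25a17 at 0.10. Slc25a16, a relative of Slc25a42, had 60.6 CPM in KO and 52.5 CPM in Flox (0.21). In all, 6 of these 8 were above 0 and 0 passed 1.5-fold, and with TMM scaling Slc25a26 also stood above 0, at 0.02.

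Carriers of carboxylates hardly differed over all adipocyte-like nuclei, apart from Slc25a21. The citrate carrier Slc25a1 had 20.5 CPM in KO and 19.97 CPM in Flox, the dicarboxylate carrier Slc25a10 4.65 and 4.54 CPM, and Slc25a11 44.3 and 42.4 CPM, with ratios between 0.04 and 0.06. For Slc25a1 this pooled ratio hides opposite directions within the clusters described below, at 0.98 in cluster 3 and -0.59 in cluster 8. Slc25a21, the carrier of 2-oxoadipate, had 35 UMIs in KO and 82 in Flox (1.20 and 2.93 CPM), a log2 ratio of -1.28 (-1.90 to -0.70). The UMIs lay in 24 nuclei in KO and 40 nuclei in Flox, with up to 5 and 10 in 1 nucleus, and the ratio was -2.94 with nuclei thinned to 1000 UMIs. Slc25a21 overlaps Pax9 on the other strand. Fibroblast/progenitor-like nuclei had most of it (59.8 CPM in each library), and the 14 fibroblast markers, all with UMIs in adipocyte-like nuclei, summed there to 205 CPM in KO and 204 CPM in Flox, with 12 of 14 lower in KO. Their part in the Slc25a21 result was not tested.

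Among the amino acid carriers, the aspartate/glutamate carrier Slc25a12 (aralar), which serves the malate-aspartate shuttle, had 59 UMIs in KO and 126 in Flox. Its level was 2.02 CPM (1.54 to 2.60) in KO and 4.50 CPM (3.75 to 5.36) in Flox, a log2 ratio of -1.15 (-1.63 to -0.70). Skeletal muscle-like nuclei held far more of it, 491 CPM in KO and 518 CPM in Flox. All 12 muscle markers, Ttn and Acta1 among them, had UMIs in adipocyte-like nuclei, with sums of 89.1 CPM in KO and 212 CPM in Flox and 11 of 12 lower in KO. Their part in the Slc25a12 result was not tested. Averaged over the ratios within the 4 adipocyte-like clusters, its log2 ratio was -0.66. The other aspartate/glutamate carrier, Slc25a13 (citrin), had 11 and 19 UMIs, too few to count. The glutamate carriers Slc25a22 and Slc25a18 stood at -0.16 and -0.22. The branched-chain amino acid carrier Slc25a44, known for its use by brown fat in thermogenesis, had 70.6 CPM in KO and 64.8 CPM in Flox (0.12). The ornithine carrier Slc25a15 stood at -0.27 (6.16 and 7.43 CPM) with an interval that reached 0.02, and the glycine carrier Slc25a38 at -0.01. Slc25a29, a carrier of basic amino acids, had 5.92 CPM in KO and 5.50 CPM in Flox (0.11). The glutathione carrier Slc25a39 had 31.3 CPM in KO and 26.0 CPM in Flox (0.26), while its relative Slc25a40 stood at -0.07.

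The iron carriers lay on opposite sides of 0. Mitoferrin 1, Slc25a37, had 44.9 CPM (42.5 to 47.4) in KO and 34.0 CPM (31.8 to 36.2) in Flox, a log2 ratio of 0.40. Mitoferrin 2, Slc25a28, had 75.4 CPM (72.3 to 78.6) in KO and 92.2 CPM (88.7 to 95.9) in Flox, a ratio of -0.29. The share of Slc25a28 in the UMIs of both was therefore 62.7% (61.1 to 64.3) in KO and 73.1% (71.6 to 74.5) in Flox, a value that does not depend on the scaling. It was lower in KO in each of the 4 adipocyte-like clusters, at 61.2% and 70.1% in cluster 1, 63.9% and 77.5% in cluster 2, 67.5% and 76.5% in cluster 3, and 56.7% and 59.1% in cluster 8, where the intervals overlapped. Slc25a37 is also the form of developing red cells, and the 6 erythroid markers, haemoglobin genes among them, all had UMIs in adipocyte-like nuclei. They summed to 91.7 CPM in KO and 124 CPM in Flox and were each lower in KO. Their part in the Slc25a37 result was not tested.

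Of the carriers with no settled substrate, Slc25a34 was lower in KO, at 11.8 CPM (10.6 to 13.1) in KO and 19.0 CPM (17.4 to 20.7) in Flox, a log2 ratio of -0.69 (-0.89 to -0.49) from 345 UMIs in KO and 532 in Flox. It stood at -0.73 in cluster 1, -0.58 in cluster 2 and -0.89 in cluster 3. Slc25a35, its near relative, had the highest ratio of the counted carriers, with 49.7 CPM (47.2 to 52.3) in KO and 35.2 CPM (33.0 to 37.4) in Flox, a log2 ratio of 0.50 (0.38 to 0.62), and it overlaps Rangrf on the other strand. Slc25a48, reported to carry choline, had 9.79 CPM in KO and 7.14 CPM in Flox (0.45). The order at the top was not stable, since Slc25a48 was above Slc25a35 with the mean CPM over nuclei (0.70 and 0.51), and without cluster 2, which is described below, Slc25a35 stood at 0.33, below Slc25a37 at 0.40. Slc25a47, best known from liver, had 82.0 and 88.9 CPM (-0.12) and Slc25a53 18.8 and 21.5 CPM (-0.19). Relatives of the uncoupling proteins, Slc25a14, Slc25a27 and Slc25a30, lay between -0.18 and 0.11, and Slc25a30 turned from 0.11 to -0.32 as the mean of the ratios within clusters. Slc25a43, with 29 UMIs in KO and 23 in Flox, had an interval of -0.57 to 1.13, in which no difference was detectable at this depth. Slc25a46, which sits in the outer membrane and acts in mitochondrial dynamics, had 101 CPM in KO and 91.3 CPM in Flox (0.15).

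The adipocyte-like nuclei fell into 4 clusters. Cluster 1 (4439 nuclei in KO, 4290 in Flox) was led by Kcnd2 and Foxp2 among the adipocyte-like clusters, cluster 2 (1330 and 2593) by the interferon-induced Gbp5 and Gbp2, and cluster 8 (318 and 422) by Trhde, Slc7a10 and Agt. Cluster 3 (2130 and 1538) had shallow nuclei, with medians of 1605 UMIs in KO and 1715 in Flox, and its leading genes included Acta1, Ttn and haemoglobin genes, which belong to other cells. Of 37 carriers with at least 50 adipocyte-like UMIs in each library, 5 differed at least 2-fold between the highest and the lowest cluster, with the same highest cluster in both libraries. Of all 11117 genes counted in this way, 12.8% did. The carriers' share was thus near the background, and 2 carriers, Slc25a12 and Slc25a21, were among the variable genes that made the clusters.

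Slc25a1, Slc25a10 and Slc25a25 were highest in cluster 8 in both libraries. Slc25a10 had 78.1 CPM in KO and 72.9 CPM in Flox there, against 0.986 to 2.12 CPM in the other clusters of KO and 1.06 to 2.05 CPM in those of Flox. Slc25a1, which exports citrate for fatty acid synthesis, had 105 CPM in KO and 158 CPM in Flox in cluster 8. Elsewhere it ranged over 14.6 to 27.3 CPM in KO and over 13.04 to 13.7 CPM in Flox. Slc25a25 had 32.0 CPM in KO and 36.8 CPM in Flox in cluster 8, against at most 7.15 CPM in the others of KO and 8.08 CPM in those of Flox. Slc25a21, with too few UMIs to be counted, also had its highest level there, at 14.0 CPM in KO and 21.5 CPM in Flox.

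Slc25a42 and Slc25a11, which overlaps Rnf167 on the other strand, had the opposite order, with cluster 3 highest and cluster 8 lowest. Slc25a42 had 874, 816, 806 and 233 CPM in clusters 3, 1, 2 and 8 of KO. In Flox it had 806, 716, 448 and 221 CPM in the same clusters. Its difference between genotypes was largest in cluster 2, where the log2 ratio was 0.85, beside 0.19 in cluster 1, 0.12 in cluster 3 and 0.07 in cluster 8. Without cluster 2, its ratio over the remaining adipocyte-like nuclei was 0.19. Slc25a11 had 45.8 CPM in cluster 3 and 22.2 CPM in cluster 8 of KO, against 48.5 and 16.1 CPM in Flox. With stricter filters on nuclei both dropped out of the carriers counted as apart, Slc25a42 also at Leiden resolution 1.0 and Slc25a11 also with doublets kept. Slc25a51 was also lowest in cluster 8, at 296 CPM in KO and 350 CPM in Flox, but its highest cluster differed between the libraries. All 43 carriers summed to 2540 CPM in KO and 2652 CPM in Flox in cluster 8, below the 3729 to 4092 CPM and 3497 to 3989 CPM of the other clusters.

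**Figure D2:**
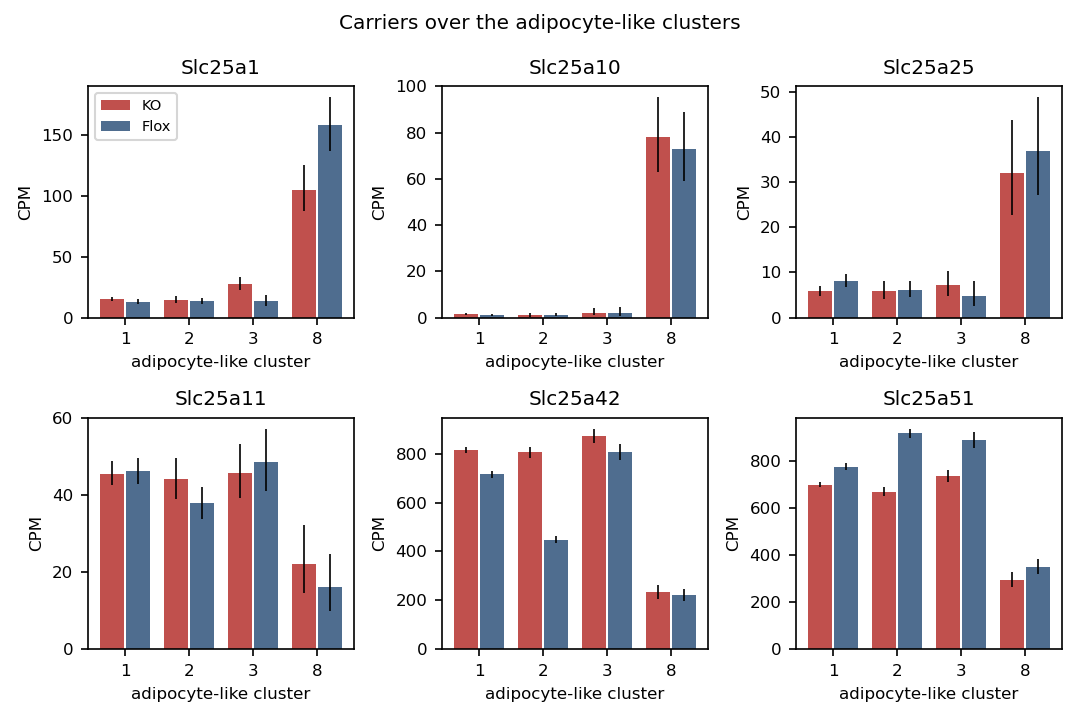
CPM of 6 carriers in the 4 adipocyte-like clusters, KO bars left of Flox bars, with 95% Poisson intervals. Slc25a1, Slc25a10 and Slc25a25 peak in cluster 8, where Slc25a11, Slc25a42 and Slc25a51 are lowest, and for Slc25a42 the 2 libraries are furthest apart in cluster 2.

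Within the clusters, the count of carriers at least 1.5-fold apart was small. In cluster 1, 0 of 37 were higher (3.31% of genes) and 3 lower (7.24%). In cluster 2, 4 of 36 were higher (3.92% of genes) and 2 lower (9.03%). The 4 were Slc25a35 (0.97), Slc25a48 (0.89), Slc25a42 (0.85) and Slc25a5 (0.62). The 2 lower ones were Slc25a12 (-1.04) and Slc25a28 (-0.61). In cluster 3, 2 of 31 were higher (4.27% of genes) and 1 lower (5.01%), with Slc25a1 at 0.98 and Slc25a37 at 0.70 above and Slc25a34 below. In cluster 8, 0 of 26 were higher (4.89% of genes) and 2 lower (5.76%), namely Slc25a23 (-0.85) and Slc25a1 (-0.59). Slc25a1 was thus higher in KO in cluster 3 and lower in KO in cluster 8.

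Across cell types, 12 of 42 carriers were at least 2-fold higher in adipocyte-like nuclei than in all other nuclei in both libraries, against 10.8% of 12670 genes, and 9 were at least 2-fold lower, against 23.4% of genes. Among the 12 were Slc25a17, Slc25a22, Slc25a26, Slc25a33, Slc25a34, Slc25a35, Slc25a42, Slc25a44, Slc25a47, Slc25a48 and Slc25a51. Slc25a42 stood out most in KO, with 797 CPM in adipocyte-like and 97.8 CPM in all other nuclei (8.14-fold). In Flox it had 619 and 119 CPM (5.21-fold). Slc25a51 had 681 CPM in adipocyte-like and 132 CPM in other nuclei of KO (5.17-fold), and 812 and 194 CPM in Flox (4.18-fold). Slc25a48 was 7.40-fold (4.05 to 17.2) higher in KO and 3.76-fold (2.38 to 6.63) in Flox. These wide intervals overlapped, with only 1.25 CPM in other nuclei of KO and 1.85 CPM in those of Flox. Other nuclei also held Adipoq, the adipocyte hormone gene, at 80.4 CPM in KO and 97.2 CPM in Flox, beside 378 and 321 CPM in adipocyte-like nuclei, and the part of adipocyte RNA in the other nuclei's carrier levels was not tested.

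The 9 of 42 carriers that were lower in adipocyte-like nuclei are a share near the background of 23.4% of genes. They were Slc25a12, Slc25a13, Slc25a21, Slc25a24, Slc25a25, Slc25a27, Slc25a30, Slc25a43 and Slc25a45. Both aspartate/glutamate carriers were among them. Slc25a12 had 2.02 CPM in adipocyte-like and 80.4 CPM in other nuclei of KO, and 4.50 and 95.3 CPM in Flox. The other nuclei include the skeletal muscle-like ones, 73 in KO and 298 in Flox, which held far more Slc25a12. Without these, Slc25a12 ranged from 60.9 to 97.7 CPM over the 5 other large classes of KO and from 56.8 to 87.5 CPM over those of Flox. Slc25a13 had 0.376 and 12.96 CPM in KO and 0.679 and 14.3 CPM in Flox. It was highest in T/NK-like and macrophage/monocyte-like nuclei, of which the T/NK-like cluster also held many macrophage markers, as described below. Slc25a27 (uncoupling protein 4) was highest in fibroblast/progenitor-like nuclei, at 153 CPM in KO and 149 CPM in Flox, more than 3-fold above the next large class in both. Slc25a21 was highest there too, and within that class in the cluster led by Opcml and Nova1, at 107 CPM in KO and 121 CPM in Flox. Slc25a43 and Slc25a45 were highest in macrophage/monocyte-like nuclei, with 23.4 and 37.6 CPM in KO and 19.6 and 47.3 CPM in Flox.

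**Figure D3:**
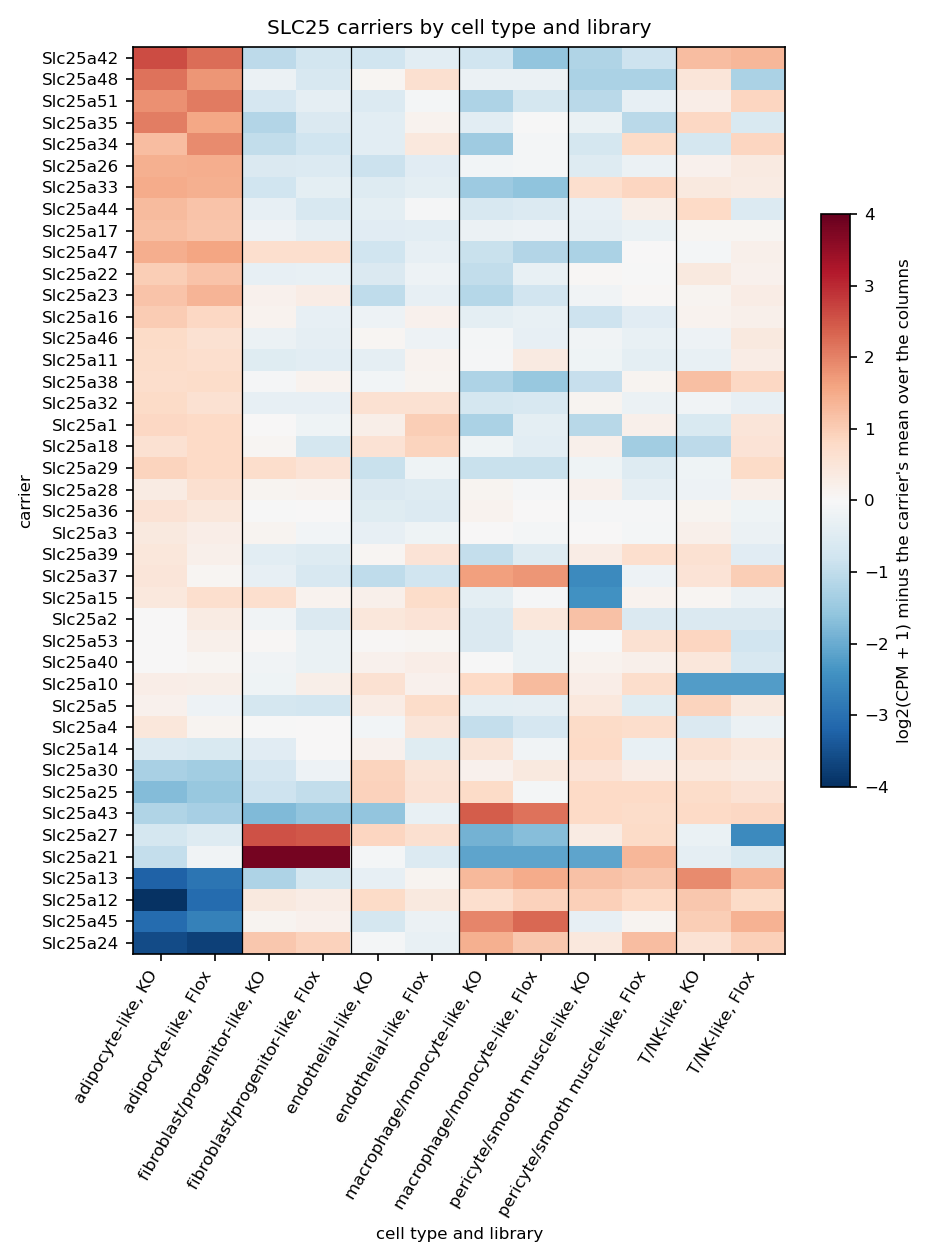
Level of 42 of the 43 carriers in the 6 large cell types, KO column left of Flox column, as log2(CPM + 1) minus each carrier's mean over the 12 columns, sorted by the ratio of adipocyte-like to other nuclei. Carriers at the top, such as Slc25a42 and Slc25a48, are red in adipocyte-like nuclei and those at the bottom, such as Slc25a24 and Slc25a45, are blue there, in both libraries alike.

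The choice between close relatives differed by cell type. Slc25a24 and Slc25a25 are both calcium-regulated, and Slc25a24 made up 6.76% (3.83 to 10.9) of their UMIs in adipocyte-like nuclei of KO and 4.05% (1.96 to 7.32) in Flox. In fibroblast/progenitor-like nuclei its share was 72.5% (64.6 to 79.5) in KO and 71.9% (64.6 to 78.5) in Flox. Slc25a28 made up 38.9% (31.3 to 46.8) of the mitoferrin UMIs in macrophage/monocyte-like nuclei of KO and 34.1% (26.9 to 42.0) in Flox, where Slc25a37 had its highest level of the large classes, 101 CPM in KO and 111 CPM in Flox. In pericyte/smooth muscle-like nuclei the share of Slc25a28 was 93.5% (78.6 to 99.2) in KO, 29 of 31 UMIs, and 62.2% (46.5 to 76.2) in Flox, 28 of 45 UMIs, the opposite order of the libraries to that in adipocyte-like nuclei. Slc25a33 made up 20.4% (19.5 to 21.2) of its pair with Slc25a36 in adipocyte-like nuclei of KO and 21.2% (20.3 to 22.1) in Flox, but 3.89% (1.58 to 7.85) and 3.70% (1.37 to 7.89) in macrophage/monocyte-like nuclei. The share of Slc25a39 in its pair with Slc25a40 was 48.1% (45.8 to 50.4) in adipocyte-like nuclei of KO and 42.4% (40.03 to 44.8) in Flox. For Slc25a22 with Slc25a18 it was 87.6% and 87.2%. Slc25a4 made up 57.0% (49.4 to 64.3) of its pair with Slc25a5 in endothelial-like nuclei of KO and 59.4% (54.0 to 64.7) in Flox.

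**Figure D4:**
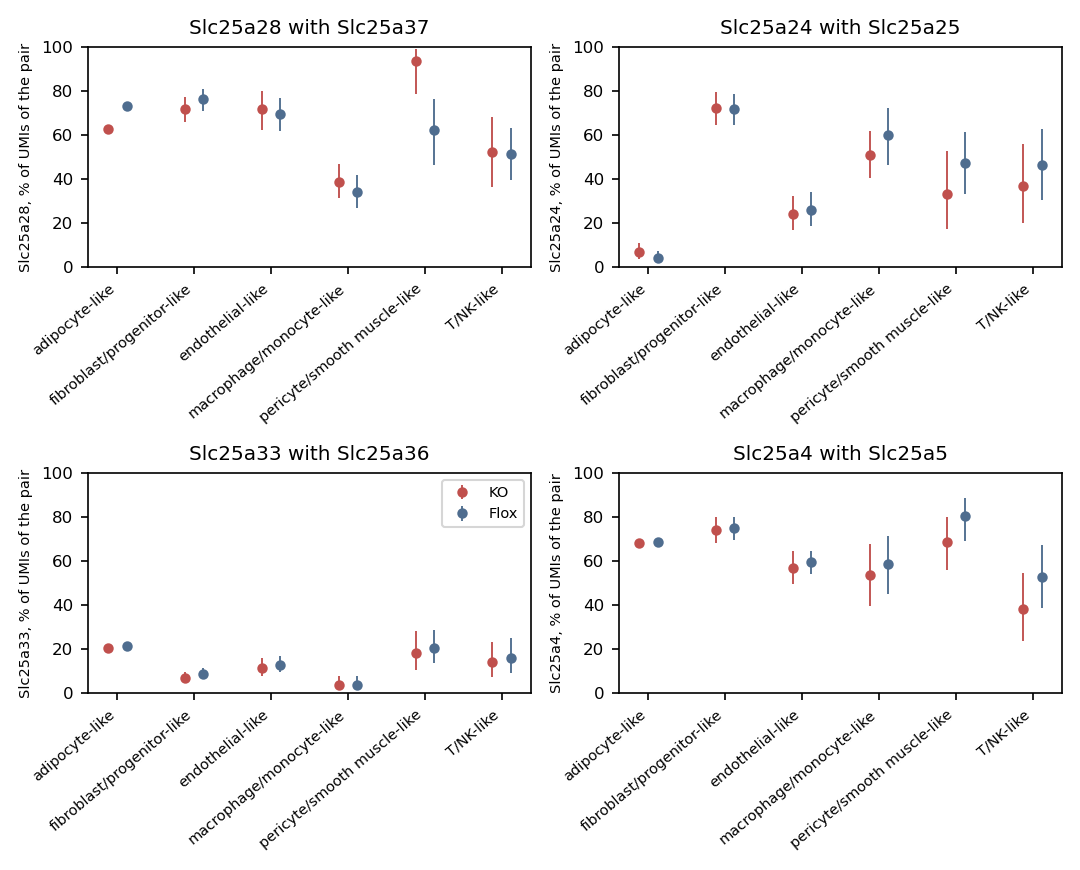
Share of the first carrier in the summed UMIs of 4 pairs of relatives over the 6 large cell types, KO points left of Flox points, with 95% Clopper-Pearson intervals. Slc25a28 is 62.7% in KO and 73.1% in Flox in adipocyte-like nuclei, and Slc25a24 is below 10% there but above 70% in fibroblast/progenitor-like nuclei.

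In endothelial-like nuclei (954 in KO, 1474 in Flox) the carriers leaned lower in KO. Of 31 counted, 0 were at least 1.5-fold higher (2.68% of 8767 genes) and 3 lower (8.81% of genes). Above 0 lay 7 of 31, against 44.0% of all genes, and 24 lay below 0. The median was -0.22 beside -0.04 over all genes. Slc25a1 had 13.3 CPM in KO and 23.1 CPM in Flox (-0.77), Slc25a23 14.4 and 23.9 CPM (-0.72) and Slc25a4 52.4 and 80.2 CPM (-0.61). Slc25a30 (0.39) and Slc25a12 (0.37, from 78.0 CPM in KO and 60.2 CPM in Flox) were the highest. Adipoq was also lower in these nuclei in KO, at 72.9 CPM in KO and 109 CPM in Flox, as were 15 of the 19 adipocyte markers, with Trhde at 0 in KO and sums of 13059 CPM in KO and 13465 CPM in Flox. The same sums in adipocyte-like nuclei were 21838 CPM in KO and 21455 CPM in Flox, while Adipoq differed more between these classes. The endothelial-like sum is therefore not a measure of adipocyte RNA alone. The muscle markers summed to 119 CPM in KO, with Mybpc2 at 0, and 422 CPM in Flox, with none at 0. The part of adipocyte or muscle RNA in the carriers' ratios was not tested.

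The other classes held few counted carriers at least 1.5-fold apart. Fibroblast/progenitor-like nuclei (1440 in KO, 2089 in Flox) had 0 of 33 higher (3.0% of genes) and 0 lower (4.03%), with Slc25a16 (0.48) and Slc25a53 (0.34) at the top and Slc25a14 (-0.51) and Slc25a30 (-0.50) at the bottom. In these nuclei 13 of the 19 adipocyte markers were lower in KO, with sums of 3213 CPM in KO and 4195 CPM in Flox, and their part in the ratios was not tested. Macrophage/monocyte-like nuclei (368 and 499) had 2 of 19 higher (4.57% of genes) and 0 lower (4.55%). These were Slc25a25, with 44.7 CPM in KO and 24.7 CPM in Flox (0.84), and Slc25a42, with 74.2 and 43.2 CPM (0.77). Pericyte/smooth muscle-like nuclei (219 and 343) had 0 of 11 higher (5.36% of genes) and 1 lower (6.94%), Slc25a51 (-0.76), with Slc25a28 (0.55) and Slc25a32 (0.33) highest. T/NK-like nuclei (190 and 220), a cluster of mixed markers described next, had 0 of 13 higher (8.17% of genes) and 1 lower (9.0%), Slc25a46 (-0.60), while Slc25a5 (0.50) and Slc25a3 (0.45) were highest. In that cluster the T/NK markers summed to 3330 CPM in KO and 1938 CPM in Flox, the macrophage markers to 4012 CPM in KO and 4266 CPM in Flox, and the adipocyte markers to 8891 CPM in KO and 10799 CPM in Flox. Its makeup thus differed between the libraries, and the part of this in its ratios was not tested.

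Slc25a51 was below 0 in each of the 6 large classes, at -0.25 in adipocyte-like, -0.32 in fibroblast/progenitor-like, -0.48 in endothelial-like, -0.54 in macrophage/monocyte-like, -0.76 in pericyte/smooth muscle-like and -0.58 in T/NK-like nuclei. Its levels in the 5 classes other than adipocyte-like were 80.3 to 233 CPM in KO and 117 to 348 CPM in Flox. Adipoq was found in each of these 5 classes, at 39.6 to 116 CPM in KO and 50.4 to 157 CPM in Flox, and the part of adipocyte RNA in the ratios of Slc25a51 was not tested.

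Among genes of the same process, 2 of the uncoupling proteins, which lie outside the Slc25a symbols, had ratios above that of any counted carrier. Of Ucp1, Ucp2, Ucp3, Mtch1 and Mtch2, 2 were at least 1.5-fold higher in KO adipocyte-like nuclei (2.05% of genes) and 0 lower (8.20%). Ucp2 had 11.98 CPM in KO and 5.93 CPM in Flox (1.01), and Ucp3, found in muscle and brown fat, 111 and 61.5 CPM (0.85). Ucp1 had 31.4 CPM in KO and 34.9 CPM in Flox (-0.15), and Mtch1 and Mtch2 were each at 0.04. These 5 genes differed by cluster, so the pooled ratios, that of Ucp1 included, do not stand for each cluster. In cluster 1, 2 were at least 1.5-fold higher (3.31% of genes) and 0 lower, with a median of 0.07 and a range of -0.49 to 0.96. In cluster 2, 3 were higher (3.92% of genes), all 5 were above 0 and the median was 1.60, with a range of 0.02 to 1.69. In cluster 3, 0 were higher and 1 was lower (5.01% of genes), with a range of -0.86 to 0.57. In cluster 8, 3 were counted and all 3 were below 0, by less than 1.5-fold. Of the 10 genes of the TIM22 route, by which carriers are imported, 0 were 1.5-fold apart. Above 0 were 7 of the 10, against 40.8% of all genes, and the median was 0.20 beside -0.06 over all genes. The chaperones Timm10 and Timm9 stood at 0.42 and -0.05. Of 21 other mitochondrial solute transporters, 19 were counted, 0 were 1.5-fold apart and the median was -0.05. The pyruvate carrier subunits Mpc1 and Mpc2 stood at -0.05 and 0.23 and the calcium uniporter Mcu at -0.19.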

How the data were processed

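Nuclei of brown adipose tissue were profiled with 10x Genomics 3' v3 chemistry, 8000 nuclei targeted per library, per the labels' protocols. The deposited values were raw UMI counts per gene and barcode, which per the file headers the authors made with Cell Ranger 5.0.0. The submitters' processing notes name mm10. For the annotation, the handling of introns and strand, and the calling of nuclei, the sources used here give nothing.

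Barcodes with under 200 genes or over 10% mitochondrial UMIs were removed (129 in KO, 99 in Flox). Scrublet in scanpy 1.11.5 removed the highest doublet scores up to 0.8% per 1000 barcodes (1331 and 2060). Counts were scaled to 10000 per nucleus. Leiden clustering (leidenalg 0.10.2, resolution 0.5) of both libraries together, without batch correction, used a graph of 15 neighbours over 30 principal components of 2000 variable genes. Clusters were named "-like" from fixed marker lists, and 6 named classes had at least 100 nuclei in each library. UMIs were summed per class and library (a depth of 29226768 UMIs in KO and 27995001 in Flox for adipocyte-like nuclei), and ratios had 0.5 UMI added. Gene spans came from GENCODE vM21 and promoter windows from RefSeq.

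With 1 library per genotype, no test was run and differences were counted by size, 1.5-fold between genotypes and 2-fold between cell types or clusters. The intervals assume independent UMIs. The counting was checked on simulated data. The members, gene lists, pairs, motifs and the rule for named genes were chosen with earlier results of these data known. That rule took 15 carriers by name and others by size of difference; most remaining members were named too. Of the carriers and of the other transporters, 1 each was counted but is not reported here. A planned comparison of the proteins was not done. The alternatives were stricter filters, doublets kept, Leiden resolutions 0.3 and 1.0, clustering without the carriers, TMM factors (edgeR 4.0.16), a trimmed total, the mean CPM over nuclei, thinning to 1000 UMIs, a minimum of 20 UMIs, leaving out the Gbp cluster, equal weight of clusters, comparison with every class and a 1.5-fold limit between clusters.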

Additional observations from a re-analysis of the deposited data

Results flagged for a closer look

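The carriers below had log2 ratios, KO over Flox, whose counting intervals lay on opposite sides of 0 in different cell types or adipocyte-like clusters. With 1 library per genotype none of these differences was tested, and the cause of each was not tested.

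Slc25a12, the aspartate/glutamate carrier, was lower in KO in adipocyte-like nuclei (-1.15) and higher in KO in endothelial-like nuclei (0.37), a difference of 1.52 on the log2 scale. The adenine nucleotide translocases had the opposite pattern. Slc25a4 stood at 0.35 in adipocyte-like and -0.61 in endothelial-like nuclei, 0.965 apart, and Slc25a5 at 0.38 and -0.47, 0.847 apart. Muscle markers summed in adipocyte-like nuclei to 89.1 CPM in KO and 212 CPM in Flox, and in endothelial-like nuclei to 119 and 422 CPM.

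Slc25a42, the coenzyme A carrier, was higher in KO in adipocyte-like (0.36) and macrophage/monocyte-like nuclei (0.77) and lower in KO in fibroblast/progenitor-like (-0.32) and endothelial-like nuclei (-0.38). Adipocyte-like nuclei were 0.681 above fibroblast/progenitor-like and 0.745 above endothelial-like nuclei. The adipocyte markers, from the class with most Slc25a42, summed in fibroblast/progenitor-like nuclei to 3213 CPM in KO and 4195 CPM in Flox (13 of 19 lower in KO), in endothelial-like nuclei to 13059 and 13465 CPM (15 of 19 lower) and in macrophage/monocyte-like nuclei to 2687 and 3158 CPM. As given above, the endothelial-like sum is not a measure of adipocyte RNA alone. Macrophage/monocyte-like nuclei were 1.09 above fibroblast/progenitor-like and 1.15 above endothelial-like nuclei, from 73 macrophage/monocyte-like UMIs in KO and 42 in Flox.

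Among adipocyte-like clusters, the citrate carrier Slc25a1 stood at 0.98 in cluster 3 and -0.59 in cluster 8, 1.57 apart. Slc25a47 stood at 0.40 in cluster 8, against -0.14 in cluster 1 and -0.38 in cluster 3, which are 0.534 and 0.782 lower.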

How the results depend on the processing

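No paired analysis was possible because there was 1 library per genotype, and for the same reason no replicate could be left out. Over 14 alternatives, 63 of 72 recomputed main results stayed within 1.5 times the count or within the counting error of the median. The other 9 moved by more, and direction was not part of this check. The count of carriers at least 1.5-fold higher in adipocyte-like nuclei, 0, became 1 with the mean CPM over nuclei and 2 with nuclei thinned to 1000 UMIs. The count of lower ones, 3, became 6 with a minimum of 20 UMIs, since more carriers were then counted. In endothelial-like nuclei the 3 lower ones became 5 with the mean CPM over nuclei, 1 with thinning and 5 with a minimum of 20 UMIs. Thinning left out 500 (KO) and 101 (Flox) shallow adipocyte-like nuclei and 243 and 533 endothelial-like nuclei. Against every other large class in place of all other nuclei, 6 carriers were 2-fold higher and 4 lower in adipocyte-like nuclei, where 12 and 9 had been. With a 1.5-fold limit, 10 carriers differed between adipocyte-like clusters, where 5 had at 2-fold. Other causes were not tested. Slc25a1, Slc25a10 and Slc25a25 were among those counted at each clustering setting, while Slc25a42 and Slc25a11 were not at each one. Of 408 recomputed ratios of single carriers, 377 moved by less than their counting error and 31 moved by more. Of the 34 carriers recomputed, 10 changed sign under at least 1 alternative, namely Slc25a1, Slc25a10, Slc25a11, Slc25a17, Slc25a25, Slc25a26, Slc25a30, Slc25a33, Slc25a43 and Slc25a53. For 8 of these the interval at the main setting took in 0, for Slc25a17 and Slc25a53 it did not, and 0 of the 10 were past 1.5-fold. Slc25a17 reached -0.01 and Slc25a53 reached 0.0042 as the mean of the ratios within clusters. Slc25a34 ranged from -0.77 to -0.63, Slc25a12 from -1.20 to -0.66, Slc25a35 from 0.33 to 0.60 and Slc25a42 from 0.19 to 0.42. Slc25a21 ranged from -2.94 to -1.04. With the carriers left out of the variable genes, 7 carriers differed between clusters. Depth limits the carriers under 50 UMIs in a class, which were not counted.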
